A study of Mus musculus with 9 samples.

Results

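The Zfp genes described here are the mouse zinc finger genes whose symbol is Zfp followed by digits alone. The gene Zfp36, whose protein binds RNA through CCCH fingers, was left out by name. The choice was made on the symbol and not on a measured value, and it took 198 of the 9277 genes in the table. All 198 were found in the gene annotation. With Zfp36, 13 rows whose symbol begins with Zfp fell outside the rule. Lung endothelial cells were profiled by RNA sequencing in 4 libraries of wild type mice (Tie1-WT) and 5 libraries of mice carrying cleavage resistant Tie1 (Tie1-CR). Tie1 is an endothelial receptor whose outer part can be cut off by proteases, and Tie1-CR is the form that withstands the cut. The names of all 9 libraries carry PBS, the saline used as a vehicle. No other treatment enters the comparison. The age of the mice, the making of the allele and whether each library stands for a separate mouse are not given here. The p-values therefore reflect only how far these libraries spread, which may be technical.

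C2H2 zinc finger genes form the largest family of DNA-binding proteins in mammals. In each finger a pair of cysteines and a pair of histidines hold a zinc ion, and a short helix between them reads a few bases of DNA. Many members also carry a KRAB box ahead of the fingers, which recruits the corepressor Trim28 and, through it, the histone methyltransferase Setdb1. KRAB members are known for silencing transposable elements, lie in clusters of tandem duplicates and have coding sequences rich in A and T. Members without a KRAB box are a mixed group that includes transcription factors, RNA-binding proteins and ubiquitin ligases.

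The coding stretch of 1 finger is shown for each of 8 genes on which the comparison turns, to set the GC-rich fingers beside the AT-rich ones. Each is the first finger in the protein with 2 residues between the cysteines, 12 between the inner cysteine and histidine and 3 between the histidines, lying within 1 exon. The sequences run 5′ to 3′ on the coding strand over 63 bases and were read from GENCODE M21 transcripts (GRCm38). Capitals mark the codons of the cysteines and histidines that hold the zinc.
Zfp219: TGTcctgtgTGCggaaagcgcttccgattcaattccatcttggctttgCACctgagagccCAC
Zfp319: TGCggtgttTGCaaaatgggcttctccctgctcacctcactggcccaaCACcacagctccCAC
Zfp335: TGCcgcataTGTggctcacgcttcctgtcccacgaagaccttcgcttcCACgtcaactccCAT
Zfp652: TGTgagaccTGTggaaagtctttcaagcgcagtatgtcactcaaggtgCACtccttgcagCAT
Zfp131: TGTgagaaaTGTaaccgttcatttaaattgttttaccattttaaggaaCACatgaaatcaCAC
Zfp777: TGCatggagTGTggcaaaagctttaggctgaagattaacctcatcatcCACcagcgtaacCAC
Zfp87: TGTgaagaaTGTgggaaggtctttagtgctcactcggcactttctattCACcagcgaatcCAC
Zfp748: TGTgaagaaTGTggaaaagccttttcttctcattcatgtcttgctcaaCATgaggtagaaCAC
The GC content of these stretches was 58.7% in Zfp319 (chr8:95329115-95329177, minus strand, exon 2 of 2) and 57.1% in Zfp335 (chr2:164902280-164902342, minus strand, exon 9 of 28). It was 54.0% in Zfp219 (chr14:52009420-52009482, minus strand, exon 4 of 6). At the other end it was 30.2% in Zfp131 (chr13:119775972-119776034, minus strand, exon 5 of 7) and 39.7% in Zfp748 (chr13:67542579-67542641, minus strand, exon 4 of 4). The stretches of Zfp652 (chr11:95753388-95753450, plus strand, exon 4 of 6), Zfp87 (chr13:67517949-67518011, minus strand, exon 4 of 4) and Zfp777 (chr6:48025418-48025480, minus strand, exon 6 of 6) lay between, at 49.2%, 47.6% and 47.6%.

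The translated coding sequences placed 82 members in a class with a KRAB box pattern ahead of the first finger. Of the other 116, 98 had at least 3 C2H2 fingers, 15 had 1 or 2, and 3 (Zfp330, Zfp503 and Zfp703) had none of the pattern. The median was 12 fingers per protein in the KRAB class and 10 over all members, with the highest number, 36, in Zfp142. Transcripts of the KRAB class were the AT-rich ones, with a median GC content of 43.6% over the transcript and 44.0% over the fingers. Members without a KRAB box had medians of 51.1% and 53.5%, and all annotated genes had a transcript median of 50.5%. The members as a whole stood at 48.2% and ranged from 35.3% to 68.7%. Their transcripts had a median length of 3749 bases against 3148 over all annotated genes.

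Depth was inferred from the step between the deposited values of each library, at 38208696 to 54408116 counted reads. On counts inferred in this way, no 2 libraries agreed within counting noise (lowest chi-square per degree of freedom 21.4). The table is limited to genes that reached at least 10.01 CPM (read counts scaled to a fixed total per library) in some library, so members below that level cannot be assessed. Of the members, 170 reached 10 CPM in every library and 28 fell below it in at least 1. Tie1 itself stood at 2136 ± 42.9 CPM (SD, n = 4) in Tie1-WT and 2433 ± 143 CPM (SD, n = 5) in Tie1-CR (exact permutation p = 0.0079, two-sided), and in the limma fit over all genes it was not called (adjusted p = 0.107). A change at the cleavage site need not alter the transcript level, so this does not check the labels. Of the 15 pan-endothelial markers listed, all were measured, with summed levels of 25984 to 28484 CPM in Tie1-WT and 28992 to 30951 CPM in Tie1-CR. Of these, 0 were called higher and 1 lower by limma, with a median log2 difference of 0.07. The 5 measured of 7 airway markers summed to 16.4 to 45.5 CPM in Tie1-WT and 55.0 to 92.1 CPM in Tie1-CR. By limma 2 of them were called higher and 0 lower, with a median log2 difference of 1.10. For type 2 pneumocytes, 6 of 9 markers summed to 279 to 626 CPM and 436 to 789 CPM, with 1 called higher and 0 lower (median log2 difference 0.99). Leukocyte markers were measured for 2 of 12 (Ptprc is not in the table), at 30.6 to 76.9 and 60.2 to 118 CPM, and 1 of the 2 was called lower. The 4 measured of 6 type 1 pneumocyte markers summed to 175 to 299.9 CPM in Tie1-WT and 162 to 244 CPM in Tie1-CR, with a median log2 difference of -0.36 and 0 called. None of the 5 red cell and 3 mesothelial markers is in the table. The part of these cells in the results below was not tested. In these bulk samples, fewer cells of a type and less RNA per cell cannot be told apart.

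Most Zfp transcripts were of low abundance. The median member stood at 27.2 CPM, 13 members averaged at least 100 CPM and 75 averaged under 20 CPM. Per kilobase of transcript, the scale on which genes can be compared, the median was 7.09 CPM per kb against 15.0 over all annotated genes. KRAB members had a median of 5.22 CPM per kb and members without a KRAB box 11.2 CPM per kb.

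**Figure D1:**
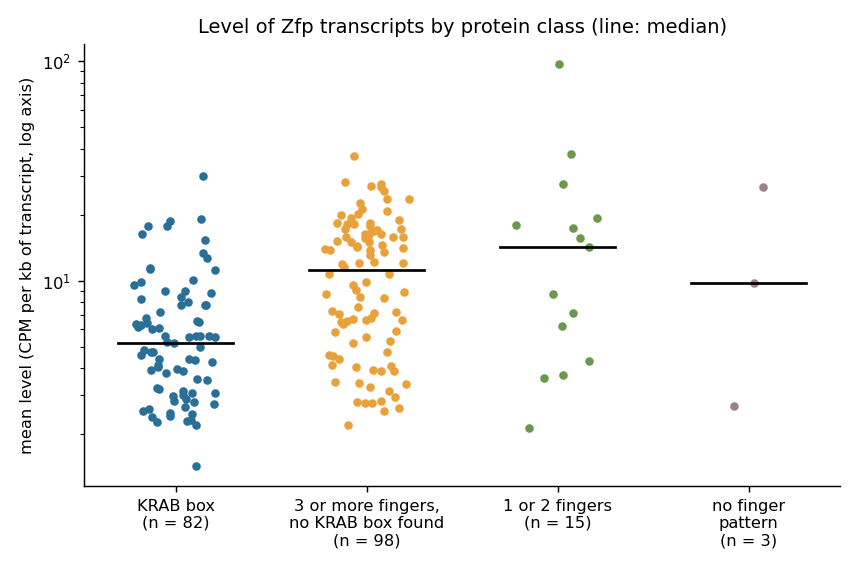
Mean level of each Zfp gene over the 9 libraries in CPM per kb of transcript (log axis) by protein class, with 1 point per gene and a line at the class median. The median of the 82 KRAB members is 5.22 CPM per kb, and the gene with the highest level, Zfp207 at 97.3 CPM per kb, has 2 fingers.

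Zfp207 (BuGZ), which binds the spindle checkpoint protein Bub3, had the highest level at 97.3 CPM per kb. It stood at 149.6, 158, 154 and 154 CPM in Tie1-WT and at 178, 117, 157, 137 and 164 CPM in Tie1-CR. The Tie1-WT libraries lay close together and the Tie1-CR libraries spread to both sides of them. The log2 difference of Zfp207 was -0.05 (SE 0.10, limma adjusted p = 0.817), and without Tie1-CR replicate 2 it was 0.04. Next in order came Zfp740 at 39.2 ± 1.88 CPM per kb (SD, n = 4) in Tie1-WT and 36.8 ± 2.71 (SD, n = 5) in Tie1-CR. Zfp358 had 34.4 ± 2.91 and 39.1 ± 2.06 CPM per kb, so that the order of these neighbours was not the same in the 2 genotypes. The KRAB member with the highest level was Zfp641, at 29.3 ± 2.42 and 30.6 ± 5.82 CPM per kb. Its Tie1-CR libraries stood at 106, 164, 108, 147 and 131 CPM, and Tie1-CR replicates 1 and 2, the highest and lowest for Zfp207, were here the lowest and highest. The lowest level was that of Zfp81, another KRAB member, at 1.43 CPM per kb.

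The comparison of the genotypes asks what blocking the cut of Tie1 does to transcripts of lung endothelium. Between Tie1-CR and Tie1-WT, 6 of 198 Zfp genes changed, 3 upward (Zfp219, Zfp335 and Zfp319) and 3 downward (Zfp131, Zfp106 and Zfp652), all by less than 0.5 on the log2 scale. Genes were tested with limma on log2(CPM + 1) with Benjamini-Hochberg adjustment over all 9277 genes and a threshold of 0.05. The 3.03% of members called compare with 4.05% of all genes, of which 1.28% were higher and 2.77% lower. The share is thus near the background. With TMM scaling or quantile normalization the split was 5 higher and 1 lower, against 182 and 190 genes (TMM) over the whole table in place of 119 and 257.

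The 3 genes that rose had GC contents of 55.5% to 62.1% and no KRAB box. Zfp219, a transcription factor that works with Sox9 in cartilage, is encoded on chromosome 14. It stood at 39.1, 39.8, 41.2 and 41.9 CPM in Tie1-WT and at 49.2, 50.7, 47.1, 50.1 and 47.3 CPM in Tie1-CR. Every Tie1-CR library was above every Tie1-WT library. This was a log2 difference of 0.27 (95% confidence interval 0.17 to 0.36, limma adjusted p = 0.0119), and the call ended without Tie1-WT replicate 1 (0.25, adjusted p = 0.0589). Of the exon bases of Zfp219, 11.9% overlap exons of Arhgef40 and Tmem253 on the opposite strand. Whether the counting used the strand is not given, so such reads cannot be assigned with certainty.

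Zfp335 is a nuclear protein of histone methyltransferase complexes that is needed for neural progenitors. Its levels were 63.03, 60.1, 59.3 and 60.4 CPM in Tie1-WT and 68.9, 75.3, 68.3, 70.0 and 71.3 CPM in Tie1-CR. The groups did not overlap, at a log2 difference of 0.22 (0.12 to 0.32, limma adjusted p = 0.0246). Of its exon bases, 29.2% overlap Pcif1 and Zfp335os on the opposite strand. Zfp319, a protein of 12 fingers, stood at 128, 135, 133 and 146 CPM in Tie1-WT and at 173, 150.0, 160.5, 149.8 and 171 CPM in Tie1-CR. The groups were separate by a small gap between Tie1-WT replicate 4 and Tie1-CR replicate 4. The log2 difference was 0.25 (0.11 to 0.38, limma adjusted p = 0.0452). The call of Zfp335 ended without any 1 of Tie1-WT replicates 1, 2 and 3 and Tie1-CR replicate 4 (adjusted p up to 0.0757). That of Zfp319 held in 2 of 9 fits, those that left out replicate 4 of Tie1-WT and replicate 2 of Tie1-CR (over the 9 fits, 0.0370 to 0.150).

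The 3 genes that fell had GC contents of 39.7% to 47.1%, and none has a KRAB box. Zfp131, which carries a BTB domain besides its fingers, had the largest difference of any member. It stood at 50.3, 59.0, 48.7 and 43.3 CPM in Tie1-WT and at 37.6, 33.0, 34.2, 29.3 and 43.5 CPM in Tie1-CR. The groups touched, since Tie1-CR replicate 5 was just above Tie1-WT replicate 4. Its log2 difference was -0.49 (-0.74 to -0.25, limma adjusted p = 0.0341). Its call ended without any 1 of Tie1-WT replicates 1, 2 and 3 and Tie1-CR replicates 2, 3 and 4 (adjusted p up to 0.106).

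Zfp106 is an RNA-binding protein whose loss causes motor neuron degeneration in mice. Its levels were 62.03, 58.7, 58.8 and 56.5 CPM in Tie1-WT and 46.2, 52.4, 52.5, 45.6 and 50.9 CPM in Tie1-CR. Every Tie1-CR library was below every Tie1-WT library. The log2 difference was -0.25 (-0.37 to -0.13, limma adjusted p = 0.0361), and 26.0% of its exon bases overlap the antisense gene Gm26899. Zfp652, a repressor that pairs with the corepressor Cbfa2t3, stood at 51.4, 56.9, 52.0 and 49.6 CPM in Tie1-WT and at 40.4, 46.7, 44.98, 45.1 and 44.9 CPM in Tie1-CR. Its groups were also separate, at a log2 difference of -0.23 (-0.36 to -0.11, limma adjusted p = 0.0425). With 1 library left out, Zfp106 was called in 3 of 9 fits, failing on the removal of any 1 of Tie1-WT replicates 1, 2 and 3 and of Tie1-CR replicates 1, 4 and 5 (adjusted p up to 0.127). Zfp652 was called in 2 of 9, those that left out replicate 4 of Tie1-WT and replicate 2 of Tie1-CR (0.0447 to 0.113 over the 9 fits). Under TMM scaling both missed the threshold (0.0577 and 0.0668).

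**Figure D2:**
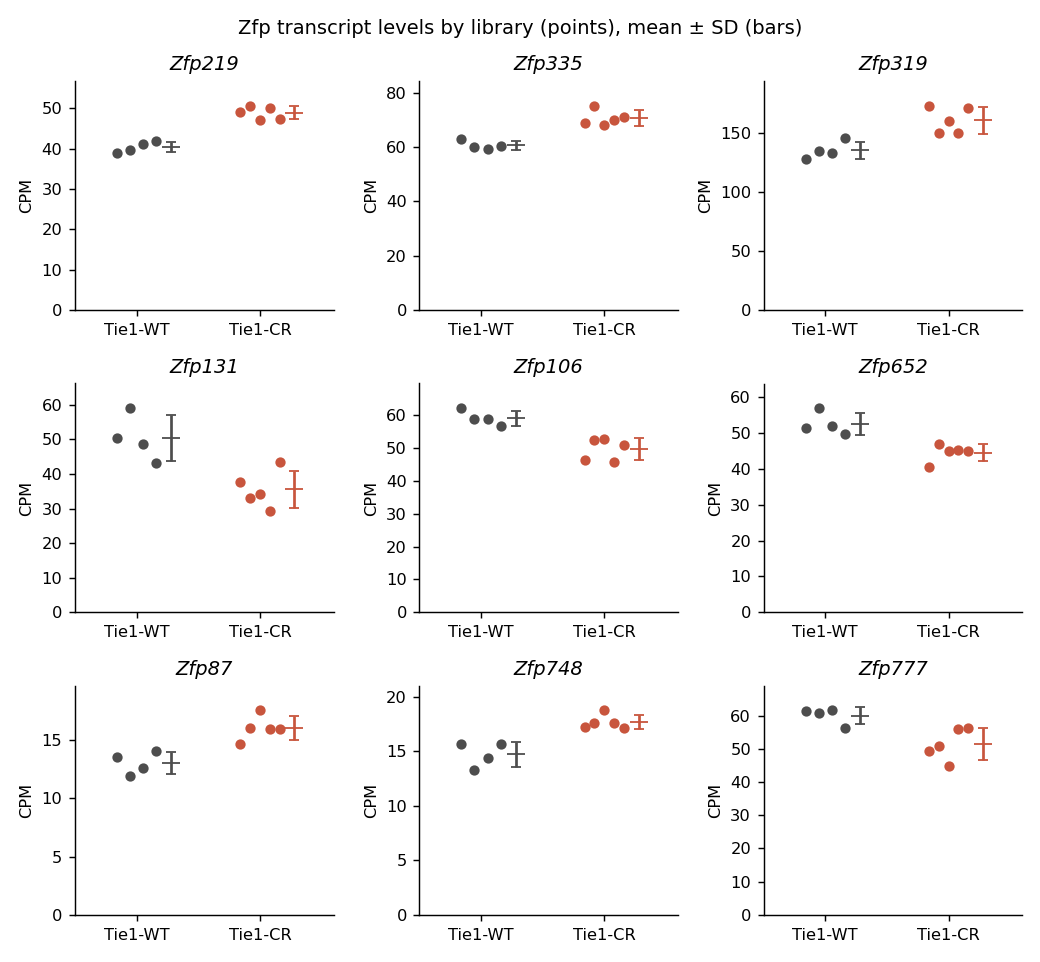
CPM of 9 Zfp genes in each of the 4 Tie1-WT and 5 Tie1-CR libraries (points), with mean and SD at the side, each axis starting at 0. In the main fit Zfp219, Zfp335 and Zfp319 were called higher and Zfp131, Zfp106 and Zfp652 lower. The bottom row holds the 3 genes called after GC and length correction but not in the main fit.

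Over all members the differences were small in both directions. The median log2 difference was 0.01, with quartiles of -0.08 and 0.09 and a range of -0.49 to 0.34, and 108 of 198 members (54.5%) were above 0. Over all 9277 genes the median was -0.03 and 41.5% were above 0. Of the members, 192 lay within 0.25 log2 of no difference, and none reached 0.5, a size that 198 genes of the table (2.13%) reached. The median 95% confidence interval of a member extended 0.16 log2 to each side, and the intervals of 193 members lay within 0.5 log2. For 94 members the interval lay within 0.25 log2. For the rest a change of that size was not excluded. Groups did not overlap for 13 members (8 higher and 5 lower, 6.57%), against 10.5% of all genes (3.74% higher and 6.74% lower). At an unadjusted p under 0.05 stood 34 members (17.2%), against 22.3% of all genes. At a threshold of 0.10, 7 were higher and 6 lower, against 9.77% of all genes.

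The KRAB class had a median log2 difference of 0.02, with 47 of 82 members above 0. Of the 82, 0 were called at 0.05, against 4.05% of all genes. An unadjusted p under 0.05 was found for 11 (13.4%, against 22.3% of all genes). The 116 members without a KRAB box had a median of 0.00, and all 6 calls fell among them (5.17%). The KRAB members also had lower levels, with a median of 17.1 CPM against 36.8 CPM. In the fit corrected for GC content and length (below), the order of the classes was the other way. There 2 KRAB members were called higher and 1 lower (3.66%). Of the members without a KRAB box, 0 were higher and 2 lower (1.72%), against 3.28% of all annotated genes. The difference in calls between the classes was not tested in either fit. The 15 members with 1 or 2 fingers had a median of -0.06. The largest differences among the KRAB members were those of Zfp799 and Zfp87. Zfp799 stood at 15.2, 12.2, 11.4 and 15.1 CPM in Tie1-WT and at 14.7, 20.3, 17.8, 19.3 and 14.5 CPM in Tie1-CR. Its groups overlapped, since Tie1-CR replicates 1 and 5 stood within the Tie1-WT range (log2 difference 0.34, SE 0.12, limma adjusted p = 0.125).

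Since zinc finger transcripts differ so much in base composition, the differences were set against GC content. Across 9048 annotated genes the log2 difference rose with the GC content of the transcript, with a Pearson r of 0.29 and a slope of 0.08 log2 per 10 GC points. Genes are not independent replicates, and they share the same 9 libraries. For each library, the deviation of genes that are not members from their mean over the 9 libraries was fitted against GC content. The slope was -0.09 to -0.03 log2 per 10 points in the 4 Tie1-WT libraries and -0.02 to 0.08 in the 5 Tie1-CR libraries. The genotypes were thus separate on this measure. Since these slopes are relative to the 9-library mean, some lie below 0 and others above it by construction. Across the members the log2 difference between the genotypes followed a flatter slope than over all annotated genes, 0.04 log2 per 10 GC points (r = 0.24, 198 genes). In the KRAB class r was 0.15 (82 genes) and in the members without a KRAB box 0.42 (116 genes).

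By GC content, the members and the other genes compared as follows. Of the 4401 other genes below the median GC content, 23.7% were above 0 and the median difference was -0.07. Of the 123 members below it, 42.3% were above 0 and the median was -0.02. In the lowest of 10 equal bins of GC content (33.4% to 42.3%), 853 other genes had a median of -0.10, 52 members -0.04, the 35 KRAB members among them 0.01 and the 17 without a KRAB box -0.09. The order was not the same in every bin: from 48.7% to 50.5% GC, 18 members had a median of -0.07 and 887 other genes -0.04. At or above the median GC content, 74.7% of 75 members were above 0 with a median of 0.06, against 58.5% of 4449 other genes and a median of 0.03. In the highest bin, both the other genes and the 22 members stood at 0.08. These differences between members and other genes were not tested. All 3 members that rose had GC contents above the median of all genes and all 3 that fell were below it. The other annotated genes were split likewise. Of the 110 called higher, 103 were at or above that median, and of the 252 called lower, 163 were below it.

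**Figure D3:**
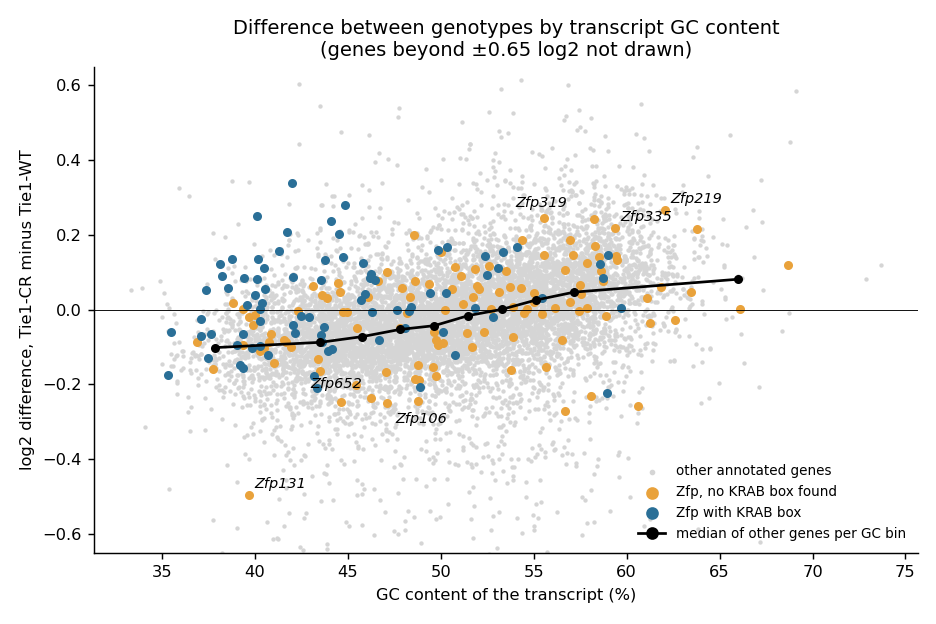
Log2 difference (Tie1-CR minus Tie1-WT) of each annotated gene against the GC content of its transcript, with Zfp genes coloured by KRAB box and the black line joining the medians of other genes in each of 10 GC bins, drawn at the middle of each bin. The line runs from -0.10 to 0.08, and many KRAB members at low GC content lie above it.

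Each library was then corrected for GC content and transcript length with natural splines, and limma was run again on 9048 genes. After the correction 2 members were called higher (Zfp748 and Zfp87) and 3 lower (Zfp106, Zfp652 and Zfp777), or 2.53% of members against 3.28% of all annotated genes (0.663% higher and 2.62% lower). The calls of Zfp106 and Zfp652 were common to both fits. The median of the members was 0.02 and that of all annotated genes -0.02. In the KRAB class 59 of 82 members were above 0 with a median of 0.04, against 3696 of 9048 annotated genes above 0. The members without a KRAB box had a median of -0.01. The correction assumes that GC content and length act alike on every gene of a library. A true change shared by genes of like GC content would be removed with it. Before it the members had a flatter slope than all annotated genes (0.04 against 0.08 log2 per 10 GC points). After it their differences fell with GC content (r = -0.23, and -0.22 in the KRAB class). Members of low GC content were thus moved up by more than their own trend.

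Zfp106 and Zfp652 changed by nearly the same amount with and without the correction, at -0.24 (95% confidence interval -0.34 to -0.15, limma adjusted p = 0.0166) and -0.22 (-0.32 to -0.13, adjusted p = 0.0202). Both missed the threshold when GC content alone was corrected (0.0595 and 0.0941). Zfp219 moved from 0.27 to 0.15 (adjusted p = 0.0594), Zfp335 from 0.22 to 0.11 (adjusted p = 0.147) and Zfp319 from 0.25 to 0.17 (adjusted p = 0.291). The 3 genes that had risen, all of high GC content, thus had smaller differences after it. Zfp131 moved from -0.49 to -0.41 (adjusted p = 0.0629).

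The neighbours Zfp87 and Zfp748, KRAB genes of 15 and 23 fingers at chr13:67515781-67526177 and chr13:67538641-67553830, had larger differences after the correction. Zfp87 stood at 13.5, 11.9, 12.6 and 14.03 CPM in Tie1-WT and at 14.6, 16.0, 17.5, 15.9 and 15.9 CPM in Tie1-CR. Zfp748 stood at 15.6, 13.3, 14.3 and 15.6 CPM in Tie1-WT and at 17.2, 17.6, 18.7, 17.6 and 17.1 CPM in Tie1-CR. In both genes every Tie1-CR library was above every Tie1-WT library. The log2 difference of Zfp87 was 0.28 (adjusted p = 0.0545) and after correction 0.34 (adjusted p = 0.0276). That of Zfp748 was 0.25 (adjusted p = 0.0593) and 0.31 (adjusted p = 0.0195). Without this correction, both were also called under TMM scaling (Zfp87 limma adjusted p = 0.0400, Zfp748 0.0411). The same held under quantile normalization (0.0310 and 0.0281). With the replicate block both missed the threshold (0.168 and 0.164). Over the 16 alternatives that kept all libraries, Zfp87 was called in 8 and Zfp748 in 7. Zfp87 shares 9.59% of its 50-base words with other transcripts, mainly those of Gm26965, which overlaps it on the same strand, and 10.9% of the exon bases of Zfp748 overlap 9430065F17Rik on the opposite strand. The corrected call of Zfp748 ended without Tie1-WT replicates 1, 2 or 3 (adjusted p up to 0.0665), and that of Zfp87 held in 2 of 9 fits, those that left out replicate 4 of Tie1-WT and replicate 1 of Tie1-CR (0.0222 to 0.0869 over the 9 fits).

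Zfp777, a KRAB member of high GC content (58.9%), was named after its values were seen. It stood at 61.4, 60.7, 61.5 and 56.3 CPM in Tie1-WT and at 49.2, 50.7, 44.8, 56.0 and 56.4 CPM in Tie1-CR. The groups overlapped at Tie1-WT replicate 4 and Tie1-CR replicate 5. The log2 difference was -0.22 (adjusted p = 0.0892), and after correction -0.31 (adjusted p = 0.0279). The corrected call held in 3 of 9 fits, those that left out replicate 4 of Tie1-WT and replicates 4 and 5 of Tie1-CR, and ended on the removal of any other (0.0209 to 0.103). For Zfp106, Tie1-WT replicates 1 and 3 each ended the corrected call (up to 0.0715), and for Zfp652 these 2, Tie1-WT replicate 2 and Tie1-CR replicate 3 did (up to 0.0586).

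**Figure D4:**
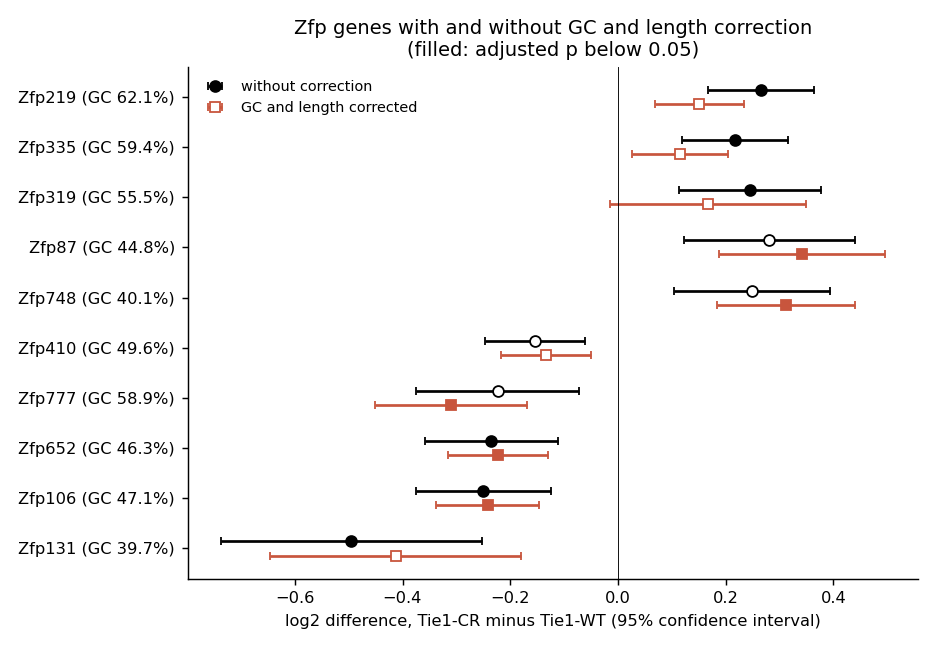
Log2 difference of 10 Zfp genes with its 95% confidence interval, without correction (circles) and after GC and length correction (squares), filled where the adjusted p is below 0.05. Zfp106 and Zfp652 are filled in both, Zfp219 moves from 0.27 to 0.15 and Zfp748 from 0.25 to 0.31.

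The libraries differed in their Zfp levels within each genotype. The members as a set deviated from their mean over the 9 libraries by -0.07 log2 on average in Tie1-CR replicate 1 and by 0.07 in Tie1-CR replicate 2. Tie1-CR replicate 1 was the lowest library for 56 members, and Tie1-CR replicate 2 was the highest for 54. In the KRAB class the mean deviations were 0.04, -0.09, -0.04 and 0.03 in Tie1-WT and -0.10, 0.10, 0.02, 0.04 and -0.01 in Tie1-CR. The genotypes thus overlapped, with means of -0.01 ± 0.06 (SD, n = 4) and 0.01 ± 0.07 (SD, n = 5), and the spread within each was larger than the difference between them. Over genes that are not members, the deviation in Tie1-CR replicate 1 also had the steepest slope against transcript length, -0.07 log2 per doubling. After the correction the KRAB means of Tie1-CR replicates 1 and 2 were still -0.07 and 0.13. The summed level of the members was 7431 ± 82.7 CPM (SD, n = 4) in Tie1-WT and 7456 ± 225 CPM (SD, n = 5) in Tie1-CR. Within groups the median SD of a member was 0.11 log2, and of any gene 0.10.

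**Figure D5:**
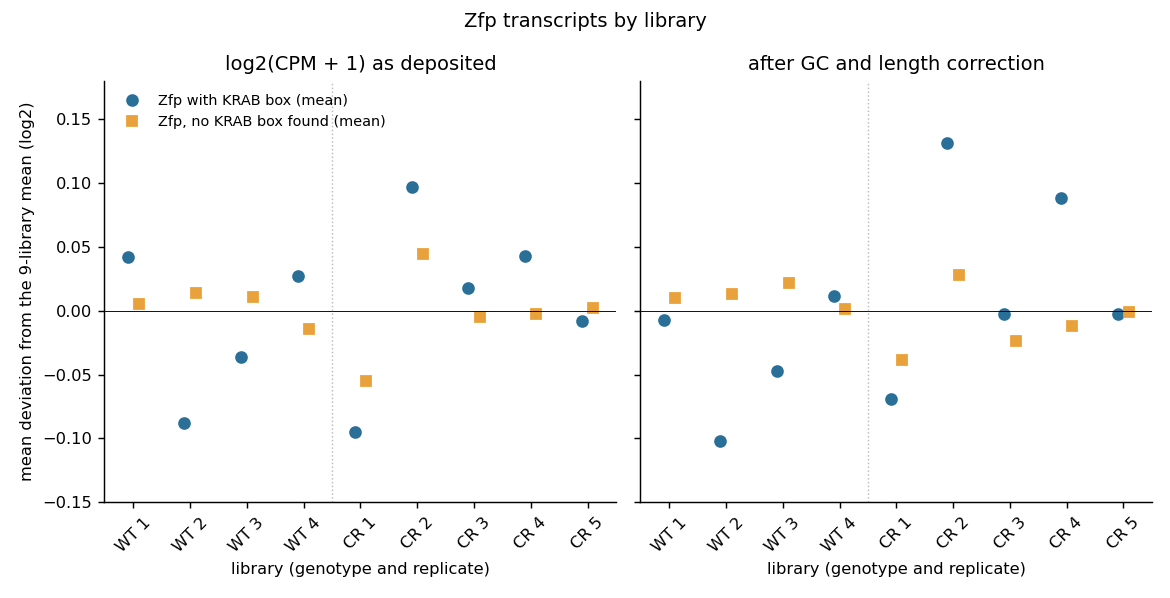
Mean deviation of KRAB members (circles) and of members without a KRAB box (squares) from the 9-library mean of each gene on the log2(CPM + 1) scale, per library, as deposited (left) and after GC and length correction (right). Tie1-CR replicates 1 and 2 are at -0.10 and 0.10 for the KRAB members on the left and the 2 genotypes overlap in both panels.

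By genome position, 119 members lay in 27 neighbourhoods (members less than 1 Mb apart) and 79 stood alone. Chromosome 7 held 49 members and chromosome 17 held 27. The largest neighbourhood, at chr17:21008903-23599487, held 13 members, 11 of them KRAB genes, with a median GC content of 38.2% and a median log2 difference of 0.00. A neighbourhood of 10 members at chr7:127233061-127885996, of 53.8% GC, had a median of 0.11 with 8 members above 0, and 0.02 after correction. Its smallest adjusted p was that of Zfp553 (log2 difference 0.24, adjusted p = 0.0738). Of the 2 neighbourhoods with 9 members, that at chr17:32765496-33631779, with 8 KRAB genes, had a median of 0.04, and 0.08 after correction. The other, at chr7:29768552-30169750, had -0.05, and -0.02 after correction. None of these 4 held a called member in either fit. Over all genes 4.05% were called, and after the correction 3.28% of annotated genes. Groups of 9 to 13 members are too small to read a share from. For 112 members no 50-base word was shared with another gene's transcripts, and for 11 over 10% were shared, so that reads of these could be split with copies (Zfp747 had 36.9% and Zfp764 27.6%, most with 9130019O22Rik).

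Members listed for a known role were 24, of which 20 are in the table, and 2 of these were called (Zfp335 and Zfp106), beside 4.05% of all genes. The number is too small to read a share from. Zfp148 (ZBP-89), which binds GC-rich promoters, stood at 107 ± 1.73 CPM (SD, n = 4) and 104 ± 6.35 CPM (SD, n = 5), a log2 difference of -0.04 (-0.15 to 0.07, adjusted p = 0.669). Its close relative Zfp281 had 78.8 ± 2.06 and 82.5 ± 4.6 CPM (0.06, -0.05 to 0.17, adjusted p = 0.484). Of the KRAB proteins that guard DNA methylation at imprinted genes, Zfp57 stood at 14.2, 13.2, 13.1 and 14.3 CPM in Tie1-WT and at 13.8, 17.1, 13.4, 16.4 and 14.8 CPM in Tie1-CR (log2 difference 0.13, adjusted p = 0.39). Zfp445 stood at 64.8, 53.6, 53.3 and 50.1 CPM in Tie1-WT and at 39.7, 53.8, 50.2, 48.1 and 47.6 CPM in Tie1-CR (-0.21, -0.41 to -0.01, adjusted p = 0.206). Both genes overlapped between the groups, and the highest and lowest values of Zfp445 were those of Tie1-WT replicate 1 and Tie1-CR replicate 1. Zfp568, a KRAB repressor of a placental Igf2 transcript, had a difference of -0.12 (adjusted p = 0.433).

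Among members known to act on RNA or protein, Zfp598, the ubiquitin ligase that marks collided ribosomes, had a log2 difference of 0.14 (adjusted p = 0.127). Zfp91, a ubiquitin ligase of the noncanonical NF-kappaB pathway, had -0.19 (adjusted p = 0.111). The RNA-binding proteins Zfp638, Zfp326 and Zfp346 had -0.14, -0.16 and 0.04 (adjusted p = 0.219, 0.273 and 0.684). None of these 5 passed the threshold. Zfp423, a cofactor of early B cell factors known from adipocytes, had -0.27 (adjusted p = 0.265), and Zfp703 had -0.26 (adjusted p = 0.245). Zfp366, one of the 13 members that averaged at least 100 CPM and chosen here after its values were seen, stood at 93.8 to 105 CPM in Tie1-WT and at 104 to 120.3 CPM in Tie1-CR (0.15, adjusted p = 0.125).

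The proteins through which KRAB members act were described from a list of 40 corepressor genes, of which 37 were measured. Of these, 0 were called higher and 2 lower (5.41%, against 4.05% of all genes), with a median log2 difference of -0.07 and 11 above 0. An unadjusted p under 0.05 was found for 15 of the 37, against 22.3% of all genes. Trim28, the direct partner of the KRAB box, stood at 91.3 ± 6.45 CPM (SD, n = 4) and 94.0 ± 1.495 CPM (SD, n = 5), a difference of 0.05 (adjusted p = 0.633), and -0.05 after correction. Setdb1 stood at 64.6 ± 2.98 and 66.7 ± 3.25 CPM (0.04, adjusted p = 0.636). The 2 that fell were Daxx, a histone H3.3 chaperone, from 68.3 ± 1.32 to 54.7 ± 3.99 CPM (-0.32, limma adjusted p = 0.0130), and the deacetylase Hdac1, from 36.9 ± 2.14 to 29.7 ± 1.11 CPM (-0.30, adjusted p = 0.0132). Both were also called after the correction (-0.37, adjusted p = 0.00827, and -0.28, adjusted p = 0.0164). In that fit 4 of the 37 were lower and 0 higher, against 2.62% and 0.663% of all annotated genes.

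Zfp410 is known for a single main target, the nucleosome remodeller gene Chd4, which it activates, and it was named after its values were seen. Zfp410 stood at 65.8, 67.3, 63.8 and 62.3 CPM in Tie1-WT and at 59.3, 57.6, 56.5, 58.0 and 59.4 CPM in Tie1-CR. Every Tie1-CR library was below every Tie1-WT library, with a log2 difference of -0.15 (adjusted p = 0.0657), and -0.13 after correction (adjusted p = 0.0821). Chd4 stood at 111 ± 5.35 CPM (SD, n = 4) and 99.96 ± 5.45 CPM (SD, n = 5), a difference of -0.15 (adjusted p = 0.129), and -0.19 after correction (adjusted p = 0.0398). Zfp410 was called in neither fit and Chd4 only after the correction. A link between Zfp410 and Chd4 in these libraries was not tested.

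Calls in other zinc finger families, chosen by symbol, are given beside 4.05% of all genes, and 3.28% after the correction. An unadjusted p under 0.05 was found for 22.3% of all genes. Of 32 Zbtb genes, which pair fingers with a BTB domain, 3 were higher and 0 lower, led by Zbtb42 (0.43, adjusted p = 0.00553), and after the correction Zbtb42 alone (0.34, adjusted p = 0.0153). By limma 0 of 14 Zkscan or Zscan genes were called in either fit (4 had an unadjusted p under 0.05). Of 11 Zc3h genes 0 were called (2 had an unadjusted p under 0.05), and after the correction 1, Zc3h12a, was lower (-0.31, adjusted p = 0.0432). Among 18 Zdhhc palmitoyltransferases 1 was higher, Zdhhc7 (0.16, adjusted p = 0.0498), and after the correction 0 (Zdhhc7 0.08, adjusted p = 0.203). Of 17 Zmym, Zmiz, Zmynd or Zfand genes 2 were lower, led by Zfand5 (-0.31, adjusted p = 0.00485), and 2 after the correction (Zfand5 -0.26, adjusted p = 0.0196).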

How the data were processed

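Per the labels' protocols, total RNA from a PicoPure isolation went into SMARTer Ultra Low libraries, a kit that amplifies cDNA. STAR 2.7 and the builds GRCm38.p6 and mm10 are named in the submitters' processing notes. Their roles, the counting tool and the gene filter were not given in the sources used here. The authors deposited 1 table. Its name says TPM, but the deposited values behave as CPM, counts divided by each library's total: per library, 100% of them are whole multiples of 1 step, within 0.01 reads. The log-scale test planned for TPM was kept.

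The scale was log2(CPM + 1), which understates changes of low genes. A floor of 1 CPM, to be met in 4 libraries or more, removed no gene. limma 3.58.1 in R 4.3.3 was fitted to the 9277 genes with genotype as the only term, a mean-variance trend, two-sided tests and a Benjamini-Hochberg threshold of 0.05. Each adjusted p comes from this fit or its corrected form or, where the text names one, from an alternative such as TMM scaling or a left-out library. In the corrected form a natural spline (4 degrees of freedom each) in GC content and log2 length was removed from each library. Intervals are 95% and unadjusted. GC content, length, position and proteins came from the longest coding transcript in GENCODE M21, matched by symbol for 9048 genes (97.5%). Fingers were counted as C-x(2-4)-C-x(12)-H-x(2-6)-H and the KRAB box by a pattern of its A part, so divergent boxes are missed. The fits were tested on simulated data.

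Named genes are the members called, the 4 highest and 4 lowest differences, the 4 highest levels per kb, listed roles, the largest neighbourhoods and the smallest adjusted p of each related list, not all of them reported. Members, lists and tests were chosen with earlier results of these data known. Alternatives covered pseudocount, filter, scaling, variance model, replicate block, threshold and each library left out. Genotype follows the order of the library names, and an effect of that order cannot be told apart from it. Plots used matplotlib 3.10.9 in Python 3.11.15.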

Additional observations from a re-analysis of the deposited data

Results flagged for a closer look

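In 6 of the 96 groups of libraries tested, 1 library stood apart from the rest of its genotype by Dixon's criterion at the 95% level, where chance alone gives about 1 in 20 groups. Zfp652, one of the genes that fell, was lowest in Tie1-CR replicate 1 at 40.4 CPM, with the other 4 at 44.9 to 46.7 CPM. Without that library its call ended (log2 difference -0.20, limma adjusted p = 0.0570). Zfp423 was highest in Tie1-CR replicate 3 at 14.3 CPM, with the others at 11.3 to 12.1 CPM. Zfp638 was highest in Tie1-WT replicate 1 at 112 CPM (others 98.2 to 99.9). Zfp213, near the lower limit of the table, was lowest in Tie1-WT replicate 2 at 9.49 CPM (others 9.95 to 10.04). Zfp777 was lowest in Tie1-WT replicate 4 at 56.3 CPM (others 60.7 to 61.5), the library in which it overlapped the Tie1-CR range. Tie1 was highest in Tie1-CR replicate 4 at 2680 CPM (others 2330 to 2420).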

How the results depend on the processing

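With 3 members called higher and 3 lower as the main result, counts moved by over 1.5 times as follows. TMM scaling and quantile normalization each gave 5 and 1 (over all genes 182 and 183 higher, in place of 119), library weights 6 higher (245 and 416 over all genes, in place of 119 and 257), and a threshold of 0.10 gave 7 and 6 (314 and 592). The GC and length correction gave 60 genes higher over the table, also when fitted without the members, 79 with GC content of the coding sequence, and 50 with GC content only, when 1 member was lower. The last 3, and leaving out libraries after correction, were added after seeing the data. Left-out libraries gave 0 to 3 members higher and 0 to 3 lower, 6 to 110 genes higher and 54 to 245 lower, and after correction 0 to 3 and 0 to 4 members. Tie1-WT replicate 1 left 0 and 0 members, with and without correction. Members without overlap, 13 in the main count, were 21 with quantile normalization and 16 to 24 with 1 library left out, where smaller groups overlap less by construction. Quantile normalization moved the median of members to 0.054 and of those without a KRAB box to 0.049. The median of all genes became -0.0017 with TMM and 0.0024 with quantile normalization. With 1 library left out, the median of members without a KRAB box was -0.011 to 0.031.

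Of single genes, Zfp207 and Zfp148, neither called, changed sign: under the 3 corrections that include length Zfp207 went to 0.0051, 0.0046 and 0.0049 and Zfp148 to 0.0076, 0.0102 and 0.0012. With GC content only Zfp148 was 0.033. With 1 library left out, Zfp207 was -0.11 (Tie1-CR replicate 1) to 0.039 (Tie1-CR replicate 2). The cause was not tested. Every other Zfp difference named kept its sign under the alternatives run. For the corepressor and other family genes the correction alone was run, under which Trim28 went from 0.05 to -0.05.

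The replicate numbers do not pair the libraries: same-numbered libraries correlated at -0.14 to 0.19, and 1 of 4 Tie1-WT libraries correlated best with its own number. With the number as a replicate block, 0 members were higher and 1 lower (38 and 145 over all genes), and with the block and the correction 0 and 1 (14 and 104, with Zfp148 at 0.0096). Tie1-CR replicate 5 shares its number with no Tie1-WT library, so it adds nothing to the genotype difference in the block fits. These fits thus compare 4 libraries with 4, and the block terms also leave fewer degrees of freedom. Count models (edgeR, DESeq2) were not run on these CPM. Genes under 10 CPM are outside the table. At the median unadjusted interval changes under 0.16 log2 could not be resolved. Larger ones could also miss the adjusted threshold, as Zfp799 did at 0.34.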
